A study of Arabidopsis thaliana with 18 samples.

Results

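The genes described here are 44 early auxin response genes of Arabidopsis thaliana, named one by one by their locus identifiers: 28 Aux/IAA genes, 11 SAUR genes (SAUR19 to SAUR24 and SAUR61 to SAUR65) and 5 GH3 genes (GH3.1, GH3.2, GH3.3, GH3.5 and GH3.6). Of these 44, 36 have a row among the 19858 genes of the RNA table: 24 Aux/IAA, 8 SAUR and 4 GH3 genes. IAA6, IAA32, IAA33, IAA34, SAUR24, SAUR61, SAUR63 and GH3.1 have none. Each gene in the table reaches at least 0.501 FPKM (a level scaled to transcript length and to the size of the library) in one of the genotypes, so no statement below covers all 44. IAA20 reaches that level in WT but not in pold2. The genes were chosen with results of the same RNA comparison known, so their RNA values are given as a description.

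Auxin enters the nucleus and joins an F-box receptor of the TIR1/AFB family to an Aux/IAA protein, which is then degraded. Aux/IAA proteins otherwise hold back the auxin response factors (ARFs), with the help of TOPLESS corepressors. ARFs set free in this way switch on the Aux/IAA genes themselves, the SAUR genes and the GH3 genes within minutes, so the 3 families serve as readouts of the auxin response. SAUR proteins promote cell expansion by acting on phosphatases that keep plasma membrane proton pumps inactive, and GH3 enzymes join auxin to amino acids and so lower the free hormone.

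The groups are pold2 mutant and wild type (WT) whole seedlings, both of ecotype C24, 10 days old and grown without treatment on MS plates with 20 g/L sucrose at 22°C under 23 h of light per day. POLD2 encodes a subunit of DNA polymerase delta, a replicative polymerase, and the labels do not name the pold2 allele. The RNA data come from 3 libraries per genotype, which the authors pooled to 1 FPKM value per genotype, so the values below have no SD. Histone marks come from 1 WT library each for H3K27me3, H3K4me3 and H3K9me2. Nothing in the labels tells whether a genotype's 3 libraries were grown apart, so q in the authors' deposited table measures the spread between libraries, which may be technical. Read depth is unknown. The targeted gene POLD2 (AT2G42120) stood at 2.83 FPKM in pold2 and 7.21 FPKM in WT and was called lower (2.55-fold, q = 0.00103 in the authors' deposited table).

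Some organ markers differed between the genotypes in these whole seedlings. Of 7 flower markers, 6 were called higher in pold2 in the authors' deposited table, and the summed level of all 7 was 227 FPKM in pold2 and 7.94 FPKM in WT, with AP1 listed at 0 in WT. Among the flower markers only SEP3 reaches 0.501 FPKM in WT, at 6.79 FPKM, and it supplied 196 FPKM of the pold2 sum. The other flower markers were at or under 0.469 FPKM in WT. They are listed only because of their pold2 level, so their direction was fixed by that minimum. Of 4 leaf markers 2 were called lower (25196 FPKM summed in pold2, 28749 FPKM in WT). Of 8 root markers 1, IRT1, was called higher, at 112 FPKM in pold2 and 77.3 FPKM in WT. The root sum was 153 FPKM in pold2 and 119 FPKM in WT, and the median log2 ratio of the root markers was -0.00. Of all genes 12.4% were called in either direction, so 1 call of 8 is near that share. Of 4 shoot meristem markers, CLV3 and WUS have no row and STM was called higher (STM and KNAT1 together 22.1 FPKM in pold2, 17.8 FPKM in WT). Of 3 vascular markers, SUC2 was called lower (60.8 FPKM summed in pold2, 72.5 FPKM in WT). The part of these shifts in the values below was not tested. In bulk seedlings, fewer cells of a type and less RNA per cell cannot be told apart.

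Most SAUR genes with a row fell in pold2, and a minority of the Aux/IAA and GH3 genes did. A gene is called here where its q in the authors' deposited table is under 0.05. By that rule 15 of the 36 genes fell in pold2 and 0 rose, beside 6.47% of all 19858 genes called lower, 5.97% called higher and 12.4% called in either direction. The called falls ranged from 1.25-fold to 2.74-fold, and 3 of them were at least 2-fold. Of the 36 genes, 30 had a lower level in pold2 than in WT, called or not, beside 51.3% of all genes. IAA20 is among the 30 but has a row only through its WT level, so it could only be lower. By family, 7 of 8 SAUR genes, 7 of 24 Aux/IAA genes and 1 of 4 GH3 genes fell. With q under 0.01 in the authors' deposited table, 4 SAUR, 7 Aux/IAA and 0 GH3 genes were called lower, beside 3.86% of all genes. With a fold of at least 1.5 added to q under 0.05, 5 SAUR, 3 Aux/IAA and 0 GH3 genes were called lower, beside 1.67% of all genes. The median log2 ratio of pold2 over WT was -0.75 for the SAUR genes, -0.21 for the Aux/IAA genes and -0.11 for the GH3 genes, and -0.01 for all genes. Once both genotypes were scaled to the same summed FPKM, these medians were -0.65 for the SAUR, -0.11 for the Aux/IAA and -0.00 for the GH3 genes. This scaling moves every gene by the same amount, the all-gene median included, so each family's distance from all genes is unchanged. Summed over its members, the SAUR level was 74.2 FPKM in pold2 and 117 FPKM in WT. The Aux/IAA sum was 1151 FPKM in pold2 and 1315 FPKM in WT, and the GH3 sum was 71.8 FPKM in pold2 and 82.6 FPKM in WT. The difference between the families was not tested.

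**Figure D1:**
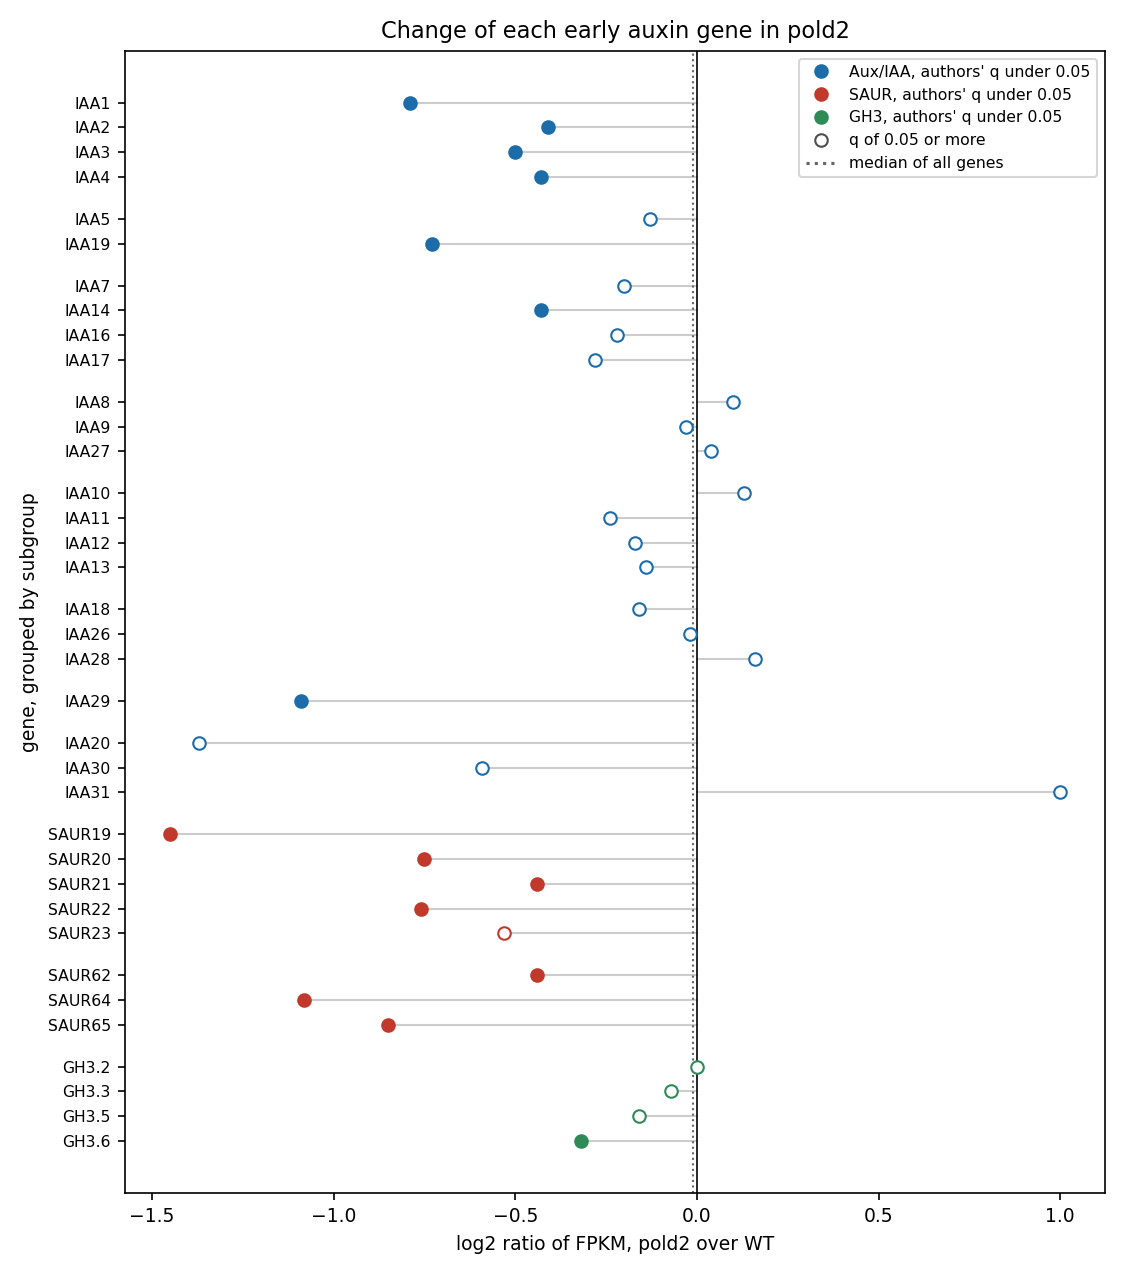
Log2 ratio of FPKM, pold2 over WT, of the 36 early auxin genes (1 point per gene, rows grouped by subgroup, filled where the authors' q is under 0.05). The 8 SAUR genes all lie left of 0, from -1.45 to -0.44, while the Aux/IAA genes spread from -1.37 to 1.00 with all 7 filled points left of 0. The point at -1.37 is IAA20, which has a row only through its WT level.

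SAUR19 to SAUR24 are short genes of one closely related group, known for driving cell expansion in hypocotyls and other growing organs. SAUR19 (AT5G18010), on chromosome 5 from 5962897 to 5963405 (TAIR10), stood at 1.31 FPKM in pold2 and 3.59 FPKM in WT. This was the largest called fall of all 36 genes, 2.74-fold (log2 ratio -1.45, q = 0.0194 in the authors' deposited table). SAUR20 (AT5G18020) stood at 7.82 FPKM in pold2 and 13.2 FPKM in WT (1.69-fold lower, q = 0.00335 in the authors' deposited table). SAUR22 (AT5G18050) was at 5.04 FPKM in pold2 and 8.52 FPKM in WT, also 1.69-fold lower (q = 0.0253 in the authors' deposited table). All 3 of these falls were at least 1.5-fold. SAUR21 (AT5G18030), the most expressed of the group, had 17.8 FPKM in pold2 and 24.2 FPKM in WT, the smallest called fall of the group at 1.35-fold (q = 0.0397 in the authors' deposited table). SAUR23 (AT5G18060), at 6.45 FPKM in pold2 and 9.32 FPKM in WT, was not called (q = 0.0701 in the authors' deposited table). The order of the 5 levels was the same in both genotypes, with SAUR21 on top and SAUR19 at the bottom.

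SAUR61 to SAUR65 belong to the SAUR63 subfamily, which promotes elongation of hypocotyls and stamen filaments. SAUR64 (AT1G29450, chromosome 1, 10305951 to 10306499) had 8.72 FPKM in pold2 and 18.4 FPKM in WT, a 2.11-fold fall (q = 0.00103 in the authors' deposited table). SAUR65 (AT1G29460) followed with 6.86 FPKM in pold2 and 12.3 FPKM in WT (1.80-fold lower, with the same q in the authors' deposited table). SAUR62 (AT1G29430), the most expressed SAUR gene among the members, had 20.2 FPKM in pold2 and 27.3 FPKM in WT and fell 1.35-fold (q = 0.00772 in the authors' deposited table). SAUR62, SAUR64 and SAUR65, the 3 of these 5 genes with a row, were all called lower.

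Each SAUR group sits in a tandem cluster, and members of a group are known as near-identical copies, so the split of reads between them is uncertain. The summed level depends less on the split among genes with a row, but it leaves out SAUR24, SAUR61 and SAUR63, which have none. It was 38.4 FPKM in pold2 and 58.8 FPKM in WT for the 5 genes of the chromosome 5 cluster (1.53-fold lower), and 35.8 FPKM in pold2 and 58.1 FPKM in WT for the 3 genes of the chromosome 1 cluster (1.62-fold lower). The genes with a row span 13.6 kb on chromosome 5, from 5962897 to 5976496, and 5.49 kb on chromosome 1, from 10302650 to 10308143. The clusters themselves are longer, since SAUR24 and SAUR61, which have no row, lie outside these spans in the RefSeq gene table (TAIR10.1).

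Other genes at these places were set beside the SAUR members, taking each non-member inside a span and the 3 nearest genes of the table on each side. On chromosome 5, AT5G18040, AT5G18065 and DRT101 lie between SAUR19 and SAUR24. On chromosome 5, 0 of 7 such genes were called in the authors' deposited table, beside 12.4% of all genes, and 0 of 7 passed at an unadjusted p under 0.05, beside 24.0% of all genes. With so few genes these counts are near the shares of all genes. The 4 with at least 1 FPKM in both genotypes had log2 ratios from 0.03 to 0.28, and the other ratios, up to 0.85, come from genes under that level. The 5 SAUR members lay between -1.45 and -0.44. AT5G18040, inside the span, had 2.84 FPKM in pold2 and 2.77 FPKM in WT. On chromosome 1, 0 of 6 neighbours were called in the authors' deposited table and 2 of 6 passed at an unadjusted p under 0.05, also near those shares. The 5 with at least 1 FPKM in both genotypes had log2 ratios from -0.46 to 0.15. The remaining gene, AT1G29490, is annotated as another SAUR gene, and was near the table's minimum at 0.548 FPKM in pold2 and 1.21 FPKM in WT. AT1G29465 was at 14.1 FPKM in pold2 and 19.5 FPKM in WT (q = 0.0564 in the authors' deposited table). AT5G18040, AT1G29490 and AT1G29465 were named after their values were seen.

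**Figure D2:**
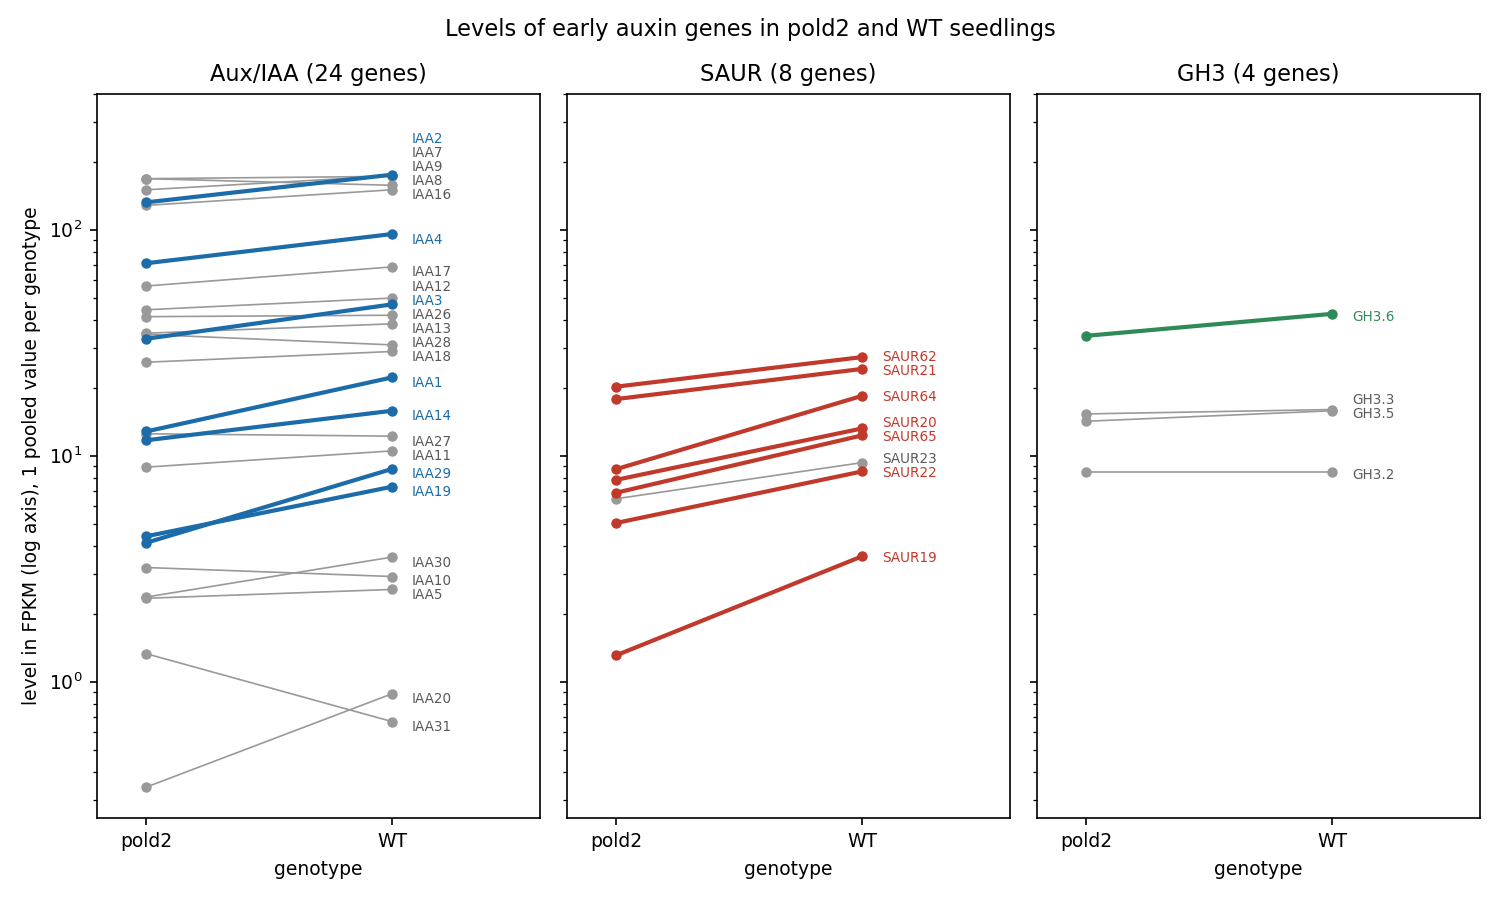
Level of each early auxin gene in FPKM (log axis) in pold2 and in WT, 1 pooled value per genotype, with a line joining the values of a gene (thick and coloured where called lower by the authors' q, thin and grey otherwise). All 8 SAUR lines are lower at pold2, and of the 7 Aux/IAA genes above 50 FPKM in both genotypes, IAA2 and IAA4 are coloured.

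Aux/IAA genes encode the short-lived repressors of the pathway, and related members are grouped here by textbook clades. IAA1 to IAA4, a clade of strongly auxin-inducible repressors, were all 4 called lower. IAA1 (AXR5, AT4G14560) had 12.8 FPKM in pold2 and 22.2 FPKM in WT, a 1.73-fold fall (q = 0.00103 in the authors' deposited table). IAA3 (SHY2, AT1G04240), which limits the size of the root meristem downstream of cytokinin, had 32.9 FPKM in pold2 and 46.7 FPKM in WT (1.42-fold lower). IAA4 (AT5G43700) had 71.0 FPKM in pold2 and 95.6 FPKM in WT (1.35-fold lower). IAA2 (AT3G23030) had 132 FPKM in pold2 and 175 FPKM in WT (1.33-fold lower). All 4 shared the smallest q of the authors' deposited table, 0.00103. Their summed level was 249 FPKM in pold2 and 340 FPKM in WT, or 21.6% of the Aux/IAA total in pold2 and 25.9% in WT.

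IAA5, IAA6 and IAA19 form the next clade. IAA19 (MSG2, AT3G15540), a repressor of hypocotyl bending and growth, had 4.40 FPKM in pold2 and 7.29 FPKM in WT, a 1.66-fold fall (q = 0.00103 in the authors' deposited table). IAA5 (AT1G15580) was at 2.34 FPKM in pold2 and 2.56 FPKM in WT, with no call. IAA29 (AT4G32280), which responds to shade and warmth, stands apart from the other clades. It had the largest called fall among the Aux/IAA genes, 2.12-fold, with 4.12 FPKM in pold2 and 8.74 FPKM in WT (q = 0.00103 in the authors' deposited table).

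In the clade of IAA7, IAA14, IAA16 and IAA17, all 4 levels were lower in pold2 and 1 was called. IAA14 (SLR, AT4G14550), the repressor of lateral root initiation, had 11.7 FPKM in pold2 and 15.8 FPKM in WT, a 1.34-fold fall (q = 0.00335 in the authors' deposited table). IAA17 (AXR3, AT1G04250) had 56.3 FPKM in pold2 and 68.4 FPKM in WT, just outside the threshold (q = 0.0599 in the authors' deposited table). IAA16 (AT3G04730) had 128 FPKM in pold2 and 150 FPKM in WT, and IAA7 (AXR2, AT3G23050) 150 FPKM in pold2 and 173 FPKM in WT. Stabilised forms of IAA7 and IAA17 make plants resistant to auxin. All 4 genes of the clade passed at an unadjusted p under 0.05 in the authors' deposited table, beside 24.0% of all genes.

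The remaining clades with an auxin degron (the sequence that the receptor binds) held no called gene, beside 12.4% of all genes. With so few genes this is near the share of all genes. IAA8, IAA9 and IAA27 had log2 ratios from -0.03 to 0.10. IAA8 (AT2G22670) had 168 FPKM in pold2 and 157 FPKM in WT, IAA9 (AT5G65670) 168 FPKM in pold2 and 172 FPKM in WT, and IAA27 (AT4G29080) 12.5 FPKM in pold2 and 12.2 FPKM in WT. The summed level of these 3 was 348 FPKM in pold2 and 341 FPKM in WT. Of these, 0 of 3 passed at an unadjusted p under 0.05 in the authors' deposited table, beside 24.0% of all genes. IAA10 to IAA13 ranged from -0.24 to 0.13. IAA12 (BDL, AT1G04550), the partner of ARF5 in forming the embryonic root, had 44.2 FPKM in pold2 and 49.8 FPKM in WT. IAA13 had 34.8 FPKM in pold2 and 38.3 FPKM in WT, and IAA10 and IAA11 were at or under 10.5 FPKM in both genotypes. The summed level of this clade was 91.1 FPKM in pold2 and 102 FPKM in WT. None of its 4 genes passed at an unadjusted p under 0.05 either, beside the same 24.0%. IAA18, IAA26 and IAA28 ranged from -0.16 to 0.16, with IAA28, a repressor of lateral root formation, at 34.4 FPKM in pold2 and 30.9 FPKM in WT. IAA26 had 41.2 FPKM in pold2 and 41.8 FPKM in WT, and IAA18 25.9 FPKM in pold2 and 28.9 FPKM in WT. Among the 10 genes of the clades IAA1 to IAA4, IAA5/6/19 and IAA7/14/16/17, 6 were called lower and the median log2 ratio was -0.42. Among the other 14 Aux/IAA genes 1 was called lower and the median was -0.09. These are 60.0% and 7.14% called lower, beside 6.47% of all genes, so the other 14 are near the share of all genes. This split was made after the values were seen and was not tested.

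IAA20, IAA30, IAA31, IAA32, IAA33 and IAA34 are grouped here, by textbook knowledge, as lacking the full degron through which auxin marks Aux/IAA proteins for degradation. Their protein sequences were not examined. IAA20, IAA30 and IAA31, the 3 of them with a row, were with IAA5 the least expressed Aux/IAA genes in pold2, and none was called. IAA20 (AT2G46990) had 0.342 FPKM in pold2 and 0.885 FPKM in WT. IAA30 (AT3G62100) had 2.37 FPKM in pold2 and 3.56 FPKM in WT. IAA31 (AT3G17600), at 1.33 FPKM in pold2 and 0.666 FPKM in WT, was the only one of the 36 genes to be 2.00-fold higher in pold2, and its q was 0.139 in the authors' deposited table.

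A few genes carried most of the Aux/IAA transcript in both genotypes. IAA2, IAA7, IAA8, IAA9 and IAA16 together held 64.8% of the summed FPKM in pold2 and 62.9% in WT. IAA2 ranked 4 in pold2 and 1 in WT. IAA8, which was not called, ranked 1 in pold2 and 4 in WT. The levels of these 5 genes lay close together, between 128 and 168 FPKM in pold2 and between 150 and 175 FPKM in WT, and without values per library their order cannot be tested.

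Of the GH3 genes, 1 of 4 fell, beside 6.47% of all genes called lower. With 4 genes, 1 call cannot be told from that share, and it was lost at q under 0.01 or with a fold of at least 1.5. GH3.6 (DFL1, AT5G54510), an auxin-conjugating enzyme whose overproduction dwarfs plants in light, had 33.9 FPKM in pold2 and 42.4 FPKM in WT, a 1.25-fold fall (q = 0.0147 in the authors' deposited table). It was the most expressed GH3 member in both genotypes and held 47.2% of the summed GH3 level in pold2 and 51.3% in WT. GH3.5 (WES1, AT4G27260), which can also act on salicylate, had 14.2 FPKM in pold2 and 15.8 FPKM in WT. GH3.3 (AT2G23170) had 15.3 FPKM in pold2 and 16.0 FPKM in WT. GH3.2 (YDK1, AT4G37390) had 8.47 FPKM in both genotypes. None of these 3 was called, and none passed at an unadjusted p under 0.05 in the authors' deposited table, beside 24.0% of all genes.

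Genes closest to the threshold on the called side were SAUR21 and SAUR22, and on the other side IAA17 (q = 0.0599), SAUR23 (q = 0.0701) and IAA30 (q = 0.0920 in the authors' deposited table). The smallest change that passes depends on the level, so the called genes were also set beside genes of like level. Between 5 and 20 FPKM (mean of pold2 and WT), 8 of 14 members were called lower, beside 4.72% of all genes in that range. Between 20 and 50 FPKM 4 of 9 members were called lower, beside 7.29% of all genes. Between 50 and 200 FPKM 2 of 7 were called lower, beside 11.5%, and these were IAA2 and IAA4. Below 5 FPKM 1 of 6, SAUR19, was called lower, beside 3.23%. Of the 30 members with a mean of at least 5 FPKM, 14 were called lower, beside 7.69% of all genes at that level.

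**Figure D3:**
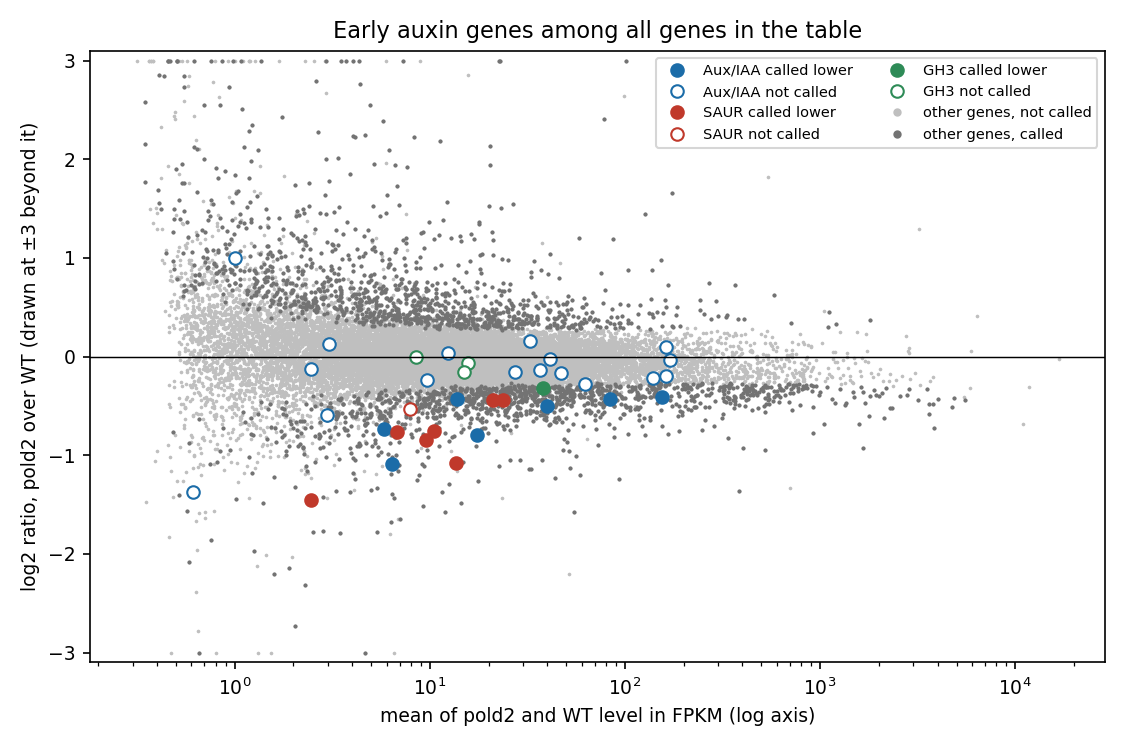
Log2 ratio of FPKM, pold2 over WT, against the mean of both levels (log axis) for all genes with a fold (grey, darker where called by the authors' q) and the 36 early auxin genes (circles, filled where called). The 15 filled circles lie below 0 at means from 2.45 to 154 FPKM, and no circle above 0 is filled.

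The rest of the pathway was described from lists written down together with the gene families. Of the 6 TIR1/AFB receptor genes 0 passed the authors' q, beside 12.4% of all genes, and 0 of 6 passed at an unadjusted p under 0.05, beside 24.0%. Their log2 ratios ran from -0.11 to 0.01. AFB5 had 41.9 FPKM in pold2 and 41.6 FPKM in WT, and TIR1 had 41.4 FPKM in pold2 and 43.9 FPKM in WT. Of 15 ARF genes with a row (of 22), 1 was called lower (6.67%, beside 6.47% of all genes) and 0 higher, with a median log2 ratio of -0.00. It was ARF11, at 7.98 FPKM in pold2 and 10.7 FPKM in WT (q = 0.00537 in the authors' deposited table). None of the 5 TOPLESS corepressor genes was called, 0 of 5 passed at an unadjusted p under 0.05, and TPL had 55.4 FPKM in pold2 and 49.5 FPKM in WT, while TPR4 had 28.9 FPKM in pold2 and 27.6 FPKM in WT.

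Few genes for making, moving and removing auxin were called, at a share near the 12.4% of all genes called in either direction. Of 8 biosynthesis genes with a row (of 14), 1 was called lower and 0 higher. It was YUC8, a flavin monooxygenase gene of the last step of auxin synthesis, at 1.95 FPKM in pold2 and 2.71 FPKM in WT (q = 0.0435 in the authors' deposited table). Of 15 transport genes with a row (of 16), 1 was called in each direction. The efflux carrier gene PIN4 had 33.8 FPKM in pold2 and 44.1 FPKM in WT, and the transporter gene ABCB1 had 52.3 FPKM in pold2 and 39.3 FPKM in WT (q = 0.00103 for each in the authors' deposited table). Of 4 genes with a row (of 5) for auxin oxidation or further conjugation, 1 was called higher and 0 lower. It was DAO1, an auxin oxidase gene, with 10.6 FPKM in pold2 and 8.26 FPKM in WT (q = 0.0361 in the authors' deposited table).

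Other auxin-inducible genes had levels on both sides of WT, and only falls were called among them. Of 5 further early auxin genes with a row (of 6), 3 were called lower and 0 higher, beside 6.47% and 5.97% of all genes. HAT2, a homeodomain factor gene, had 16.7 FPKM in pold2 and 22.9 FPKM in WT (q = 0.00103 in the authors' deposited table). ARGOS, which promotes organ growth, had 2.79 FPKM in pold2 and 4.83 FPKM in WT (q = 0.00827 in the authors' deposited table). ACS4, an ethylene synthesis gene, had 0.224 FPKM in pold2 and 0.946 FPKM in WT, below 1 FPKM in both (q = 0.00264 in the authors' deposited table). Only its WT level reaches 0.501 FPKM, so ACS4 has a row only through WT and could only be lower in pold2. The lateral root factor genes LBD16 and LBD18, named after their values were seen, were not called. LBD16 had 2.80 FPKM in pold2 and 2.05 FPKM in WT, a log2 ratio of 0.45 beside -0.46 for HAT2, and LBD18 had 0.719 FPKM in pold2 and 0.630 FPKM in WT.

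By the authors' q, 7 fell and 1 rose among 44 further SAUR genes with a row (of 69 in the RefSeq gene table). These are 15.9% lower, beside 6.47% of all genes, and 2.27% higher, beside 5.97%. The median log2 ratio was -0.75 for the SAUR members and -0.25 for these 44, a difference that was not tested. SAUR66 (19.8 FPKM in pold2, 28.9 FPKM in WT) and SAUR68 (AT1G29510, 30.3 FPKM in pold2, 45.6 FPKM in WT) lie on chromosome 1 beyond SAUR65 and belong to its subfamily. Both were called lower. By size of change the called genes were SAUR16 (54.8 FPKM in pold2, 85.6 FPKM in WT), SAUR27 (8.24 FPKM in pold2, 12.6 FPKM in WT), SAUR26 (5.96 FPKM in pold2, 9.11 FPKM in WT), SAUR68, SAUR50 (60.8 FPKM in pold2, 91.3 FPKM in WT) and, as the one rise, SAUR3 (10.8 FPKM in pold2, 7.40 FPKM in WT). SAUR14, at 94.7 FPKM in pold2 and 135 FPKM in WT, was the most expressed of those called, and SAUR14 and SAUR66 were named after their values were seen.

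**Figure D4:**
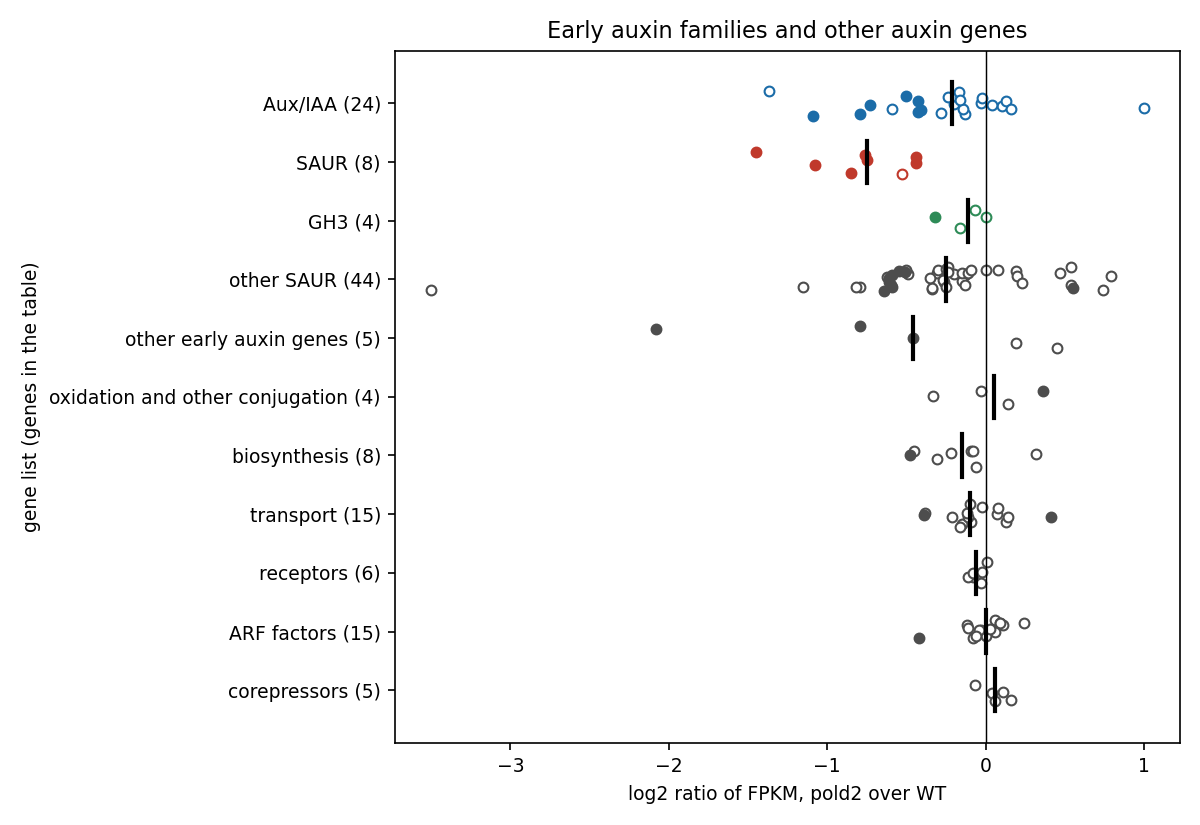
Log2 ratio of FPKM, pold2 over WT, for the 3 early auxin families (coloured) and 8 other lists of auxin genes (grey), 1 point per gene with its row in the table, filled where called by the authors' q, with a black bar at each median. Receptors, ARFs and corepressors lie near 0 apart from ARF11, while the filled points of the SAUR and early gene lists lie left of 0 except SAUR3.

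Histone marks at these genes were measured in WT. H3K27me3 is the repressive mark of Polycomb, H3K4me3 marks the start of transcribed genes, and H3K9me2 marks silent transposons and repeats. A gene was counted as marked where a peak in the authors' list covered at least 1 bp of its locus (for H3K4me3, the locus and 500 bp on both sides). Of the 36 genes, 10 had an H3K27me3 peak (27.8%), beside 15.3% of all genes in the table. H3K4me3 peaks lay at 27 of the 36 (75.0%), beside 86.4% of all genes. With the better-scoring 50 percent of the H3K4me3 peaks, 10 of the 36 were marked, beside 54.7% of all genes. H3K9me2 peaks lay at 0 of 36, beside 0.680%. Each list comes from 1 library, so a peak has no replicate.

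H3K27me3 was found at 8 of 24 Aux/IAA genes, 2 of 4 GH3 genes and 0 of 8 SAUR genes. The marked Aux/IAA genes were IAA1, IAA2, IAA7, IAA17, IAA19, IAA20, IAA29 and IAA30. Peaks covered the whole locus of IAA1 and IAA2 (100% of each), 96.2% of IAA17, 90.6% of IAA20, 90.2% of IAA29, 85.5% of IAA30, 78.3% of IAA7 and 36.6% of IAA19. IAA1, IAA2, IAA7, IAA17 and IAA19 had both an H3K27me3 and an H3K4me3 peak, whereas IAA20, IAA29 and IAA30 had H3K27me3 alone. IAA5 had no peak of any mark. The 8 Aux/IAA genes with H3K27me3 had a median of 15.5 FPKM in WT, and the 16 without it 34.6 FPKM. Among GH3 genes, GH3.2 and GH3.3 had H3K27me3 and no H3K4me3, and GH3.5 and GH3.6 the reverse. Of the SAUR genes, SAUR19, SAUR22 and SAUR64 had no peak of any mark, and the other 5 had H3K4me3 alone, which at SAUR65 lay beside the locus and not on it. Both an H3K27me3 and an H3K4me3 peak lay at 5 of the 36 members, beside 1520 of 19858 genes. No peak of any mark lay at 4 of the 36, beside 1158 of 19858 genes. The SAUR loci with a row are short, from 488 to 686 bp.

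No member, with or without H3K27me3 in WT, was called higher in pold2. Of the 10 marked members 4 fell and 0 rose by the authors' q, beside 7.22% of all 3033 marked genes called lower and 16.6% called higher. The 4 were IAA1, IAA2, IAA19 and IAA29. Of the 26 members without the mark, 11 were called lower and 0 higher, beside 6.34% and 4.05% of the 16825 genes without it. Among Aux/IAA genes alone, 4 of 8 with the mark and 3 of 16 without it were called lower. With so few genes, 0 of 10 called higher is near the 16.6% of all marked genes. These counts are small and were not tested. No histone values of pold2 were used here, so a change of the mark at these genes was not analysed.

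**Figure D5:**
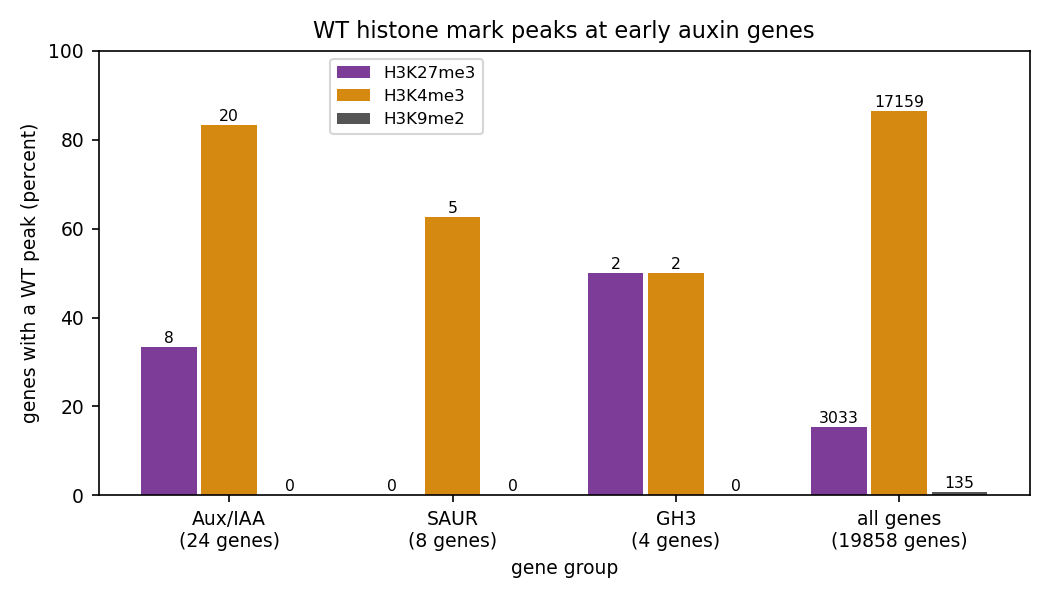
Percent of genes with a WT peak of H3K27me3, H3K4me3 or H3K9me2 in each family and among all genes in the table (bars from 0, number of genes above each bar, 1 library per mark). H3K27me3 stands at 8 of 24 Aux/IAA, 0 of 8 SAUR and 2 of 4 GH3 genes, beside 3033 of 19858 genes.

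Aux/IAA genes also sit in neighbouring pairs, in each of which the IAA1 to IAA4 member had the lower ratio. IAA1 and IAA14 lie 11038 bp apart on chromosome 4 with 0 genes of the table between them, and had log2 ratios of -0.79 and -0.43, both called lower. IAA2 and IAA7 lie 12878 bp apart on chromosome 3, with log2 ratios of -0.41 and -0.20, of which IAA2 was called. IAA3 and IAA17 lie 6706 bp apart on chromosome 1, with log2 ratios of -0.50 and -0.28, of which IAA3 was called. The difference within a pair was not tested.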

How the data were processed

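RNA was measured in 3 libraries each of pold2 and WT seedlings, and histone marks in 1 WT library each. The authors deposited FPKM values pooled to 1 per genotype, with a log2 fold change, a p-value and a q-value, per the file headers. TopHat2 2.1.1, Cuffdiff 2.1.1, Bowtie 0.12.9 and TAIR10 are named in the submitters' processing notes, without saying which step used which. The authors' q-values were used as deposited and match a Benjamini-Hochberg adjustment of their p-values to within 5.28e-07. Because 965 genes have the lowest p, 5.00e-05, those at the lowest q, 0.00103, cannot be ranked by it. Log2 ratios were recomputed from the 2 FPKM columns and differed from the deposited ones by over 0.001 in 1 row. With pooled values no further test was possible, counting depth is unknown and intervals could not be computed. Each peak has the score deposited by the authors, used only to take the better-scoring 50 percent. Which caller and control made the peaks is not given in the sources used here. Locus starts in the table count from 0 and are printed from 1.

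Symbols came from a RefSeq gene table (TAIR10.1), which matched 19771 identifiers and the names of all 44 members. It gives no symbol for DAO1 and DAO2, whose names are textbook names. Its coordinates were used only for the order of genes at the SAUR clusters. The members, the lists and the tests were chosen with earlier results of these data known. Named genes are the 44 members, POLD2, and, from each list, at most 6 called genes ranked by change (the 2 with the highest level if none was called). Organ markers are named as well, and the text says where another gene was named after its values were seen. The planned search of protein and promoter sequences was not run. The steps were tested on simulated data. Python 3.11.15 with pandas 2.3.3 was used.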

Additional observations from a re-analysis of the deposited data

How the results depend on the processing

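No paired analysis was possible because the table holds 1 pooled column per genotype and no replicate number, and for the same reason no library could be left out. Of 50 recomputed values 22 could not move (a count of 0 under a stricter rule, or a filter that removed no member). Of the other 28, 20 kept their direction and stayed within a set tolerance, 8 moved beyond it, and 0 turned round. A count cannot turn round, so that 0 covers the medians alone. The tolerance was 1.5-fold for a count and 0.1 in log2 ratio for a median. Scaling to the all-gene median or to equal sums shifts every median by the same constant. Whether a scaled median stayed within the tolerance was therefore fixed in advance. With a minimum fold of 1.5, the called falls were 3 for the Aux/IAA genes and 0 for the GH3 genes (1.67% of all genes are then called lower). With q under 0.01 they were 4 for the SAUR genes and 0 for the GH3 genes, beside 3.86% of all genes. Summed over all genes, FPKM in pold2 was 0.928 of that in WT (log2 -0.11). Scaling to equal sums, added after the data were seen, gave median log2 ratios of -0.11 for the Aux/IAA, -0.65 for the SAUR and -0.00 for the GH3 genes. The median of all genes moves by the same amount, so the distance of each family from it is unchanged. With the better-scoring 50 percent of H3K4me3 peaks, 10 members were marked, against 27 with all peaks. Summing each SAUR cluster before the ratio, also added later, gave -0.66. Depth is unknown, so folds of all genes under 1 FPKM in a genotype are uncertain, among them IAA20, IAA31, ACS4, LBD18 and AT1G29490. The comparison of Aux/IAA genes by a degron motif in the protein was not run.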
